A study of Mus musculus with 2 samples.

Results

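The class I heavy chain family is described here through 10 of the 27646 gene names on the array, with 17 of its 41174 gene probes. The genes are H2-K1, H2-D1, H2-Q1, H2-Q2, H2-Q7, H2-Q8, H2-T23, H2-T22, H2-M3 and Cd1d1, and every probe that carried one of these names, or an older synonym, was kept and is reported on its own. In the series, immature B cells that meet their antigen were compared with immature B cells that do not. Autoreactive cells came from the bone marrow of BALB.B mice with the genotype 3-83Igi, Rag1-/- and H-2b, and were labelled with Cy5. Non-autoreactive cells came from the bone marrow of BALB/c mice with the genotype 3-83Igi and H-2d, and were labelled with Cy3. All mice were untreated, both groups carried the knocked-in 3-83Igi antigen receptor, and in both the sorted cells were B220+ and lacked CD23, CD43 and IgD. The labels call the cells of each sample pooled without saying how many mice gave them, and the age of the mice is not given in the sources used here. Each of 2 two-colour Agilent arrays set 1 pool of autoreactive cells directly against non-autoreactive cells, with the dyes the same way round. The study design states 2 biological replicates a group, but only the autoreactive pools are numbered in the labels, so the p-values measure the spread of these 2 arrays, part of which may be technical. Strain, H-2 haplotype, Rag1 genotype and dye all followed the group and cannot be told apart from autoreactivity.

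Class I heavy chains pair with beta-2 microglobulin, are loaded with peptide in the endoplasmic reticulum and display it on the cell surface. H2-K1 and H2-D1 encode the classical K and D molecules, which present peptides to CD8 T cells. The genes of the Q, T and M regions encode nonclassical or class I-like molecules with narrower ligands or expression. The receptor of 3-83Igi mice binds the K molecule of the k and b haplotypes and does not bind class I of the d haplotype. A class I heavy chain is therefore the self antigen of the autoreactive cells, and these cells also express it themselves. The alleles at these loci differ in sequence between H-2b and H-2d mice, and a probe can bind the transcripts of 2 alleles, or of close relatives within the family, unequally. For each probe a difference in transcript amount and a difference in probe match cannot be told apart.

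The promoters of classical class I genes are known for a short run of conserved elements, among them a kappa B site, an interferon response element and an X2 element. The windows of 4 members are shown, those of the classical pair H2-K1 and H2-D1, whose ratios differed, and those of the nonclassical genes H2-Q2 and H2-T23, in which none of the motifs searched was found. Each holds 300 bases, most of them before the gene start, reads 5′ to 3′ on the gene's strand, and comes from a RefSeq table of build GRCm38.p6. That build is of the C57BL/6J strain, which has the H-2b haplotype. The H-2d promoters are not analysed here. Capitals mark GGGGATTCC (kappa B core), GTTTCACTT (interferon response core) and GNTGACG (X2 core), each searched on both strands, with no overlap between them in these windows. The H2-K1 window is chr17:34000298-34000597 (minus strand), that of H2-D1 chr17:35262844-35263143 (plus strand), that of H2-Q2 chr17:35342057-35342356 (plus strand) and that of H2-T23 chr17:36032652-36032951 (minus strand).
H2-K1: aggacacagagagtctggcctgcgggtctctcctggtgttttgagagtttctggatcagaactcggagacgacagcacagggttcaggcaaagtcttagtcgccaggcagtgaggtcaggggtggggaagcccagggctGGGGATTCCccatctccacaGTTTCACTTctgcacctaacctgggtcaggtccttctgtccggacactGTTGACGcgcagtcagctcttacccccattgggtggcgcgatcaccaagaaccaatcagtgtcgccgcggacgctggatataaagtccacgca
H2-D1: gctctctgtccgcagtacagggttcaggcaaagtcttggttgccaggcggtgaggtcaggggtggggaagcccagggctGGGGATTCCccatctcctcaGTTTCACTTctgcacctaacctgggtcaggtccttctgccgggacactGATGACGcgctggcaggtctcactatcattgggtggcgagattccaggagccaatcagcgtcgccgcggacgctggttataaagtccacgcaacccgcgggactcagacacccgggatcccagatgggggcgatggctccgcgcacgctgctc
H2-Q2: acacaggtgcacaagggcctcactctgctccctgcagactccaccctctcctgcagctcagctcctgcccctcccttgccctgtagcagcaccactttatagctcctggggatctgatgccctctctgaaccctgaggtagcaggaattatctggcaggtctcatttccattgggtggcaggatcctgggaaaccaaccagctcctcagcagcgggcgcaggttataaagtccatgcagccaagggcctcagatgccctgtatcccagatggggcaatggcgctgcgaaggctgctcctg
H2-T23: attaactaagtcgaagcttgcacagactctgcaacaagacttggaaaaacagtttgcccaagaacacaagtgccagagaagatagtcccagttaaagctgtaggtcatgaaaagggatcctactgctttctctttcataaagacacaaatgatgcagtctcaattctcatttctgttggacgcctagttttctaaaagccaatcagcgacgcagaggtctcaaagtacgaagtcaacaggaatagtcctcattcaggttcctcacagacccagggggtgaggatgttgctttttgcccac

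The H2-K1 and H2-D1 windows each held all 3 motifs in the same order, and they were 88.3% identical over 239 aligned bases. Of the 7 member genes found in the promoter table, H2-Q7 also held all 3. H2-M3 held the interferon response and X2 cores, and H2-T22 the interferon response core alone. The kappa B core occurred in 0.25% of 32851 promoter windows, the interferon response core in 0.399% and the X2 core in 7.6%. None of the 3 was found in the H2-Q2 and H2-T23 windows. A match is a description of the letters and says nothing of whether a factor binds there. H2-Q1, H2-Q8 and Cd1d1 had no entry.

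All log2 ratios below are autoreactive over non-autoreactive, after background correction and loess normalization within each array, so that a ratio of 0 means a probe on the loess curve of its array. A log2 level is a normalized spot intensity. As a reading of transcript it can be set only against the same probe in the other group. An error given with a ratio is the standard error of limma (SE, n = 2 arrays). The fit has 1 residual degree of freedom per probe and borrows 5.08 from all probes tested, and a probe was called at an adjusted p under 0.05. The labels were checked with H2-Ea, a class II gene that the b haplotype does not express, with log2 ratios of -5.22 and -5.26 (limma adjusted p = 0.000196). Depending on the channel, 54.1% to 57.4% of the 43379 gene spots stood well above background, none was saturated, and the number of arrays limits the precision.

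Of the 17 class I probes, 15 were well above background in both channels on both arrays and were tested. Of these 1 was called higher in autoreactive cells (6.67%), an H2-K1 probe, while 3.15% of all 22623 probes tested were called higher. None was called lower by limma, against 2.17% of all probes. At an unadjusted p under 0.05, 4 class I probes were higher and 2 lower, beside 11.8% and 11.3% of all probes tested. The remaining probes had ratios on either side of 0, with 6 of the 15 above 0 on both arrays, 7 below 0 on both and 2 with opposite signs. The median of the 15 ratios was 0.027, beside 0.006 for all probes tested, and lay at -0.063 on array 1 and 0.117 on array 2. Those 2 array medians differ in sign. With the deposited ratios the class I median was -0.093, and without the filter, over all 17 probes, it was -0.023. The gap between the arrays had a median of 0.116 for class I probes and 0.191 for all probes tested, and its range over the class I probes ran to 0.79.

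**Figure D1:**
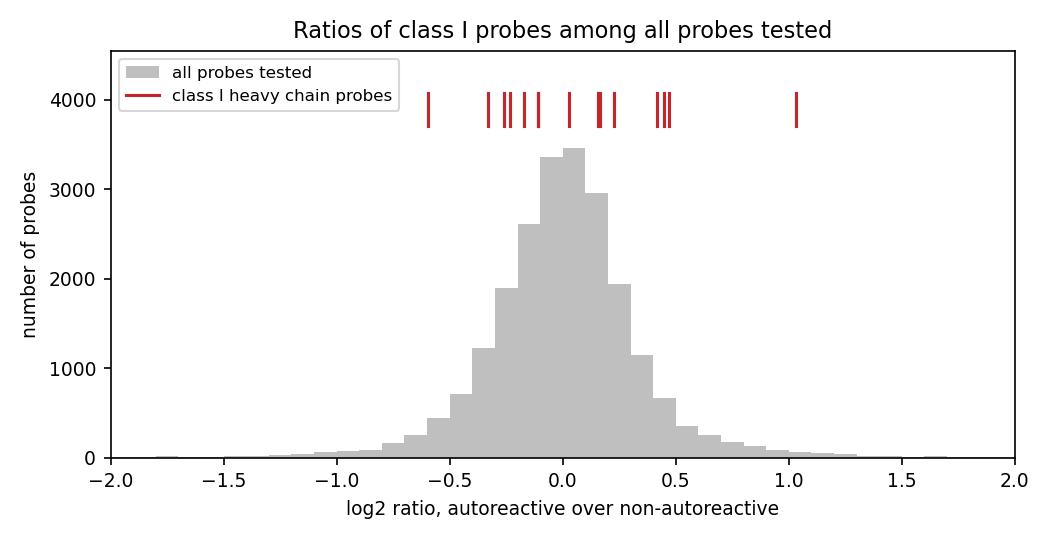
Number of probes (vertical axis) by log2 ratio, autoreactive over non-autoreactive (horizontal axis, in steps of 0.1), for all 22623 probes tested (grey bars; the few beyond the axis are not drawn). Red marks above the bars show the 15 class I probes tested, which spread over both sides of 0, with an H2-K1 probe at 1.03 and an H2-Q1 probe at -0.59 at the ends.

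H2-K1 encodes the K heavy chain, the molecule that the knocked-in receptor recognises in H-2b mice, and had 3 probes. The scanner files list no RefSeq transcript for any of the 3, so they are assigned to H2-K1 by name. Probe A_52_P50496 had log2 levels of 14.22 and 14.16 in autoreactive cells, against 13.15 and 13.16 in non-autoreactive cells. Its level was higher in autoreactive cells on both arrays, by about the same amount, and the groups did not overlap. The log2 ratio reached 1.07 on array 1 and 1.00 on array 2, with a mean of 1.03 ± 0.12 (2.05-fold, 95% interval 0.73 to 1.33, limma adjusted p = 0.0102). Of all probes tested, 1.15% had a ratio this high. With every alternative other than median centring the ratio lay between 1.03 and 1.09 and the adjusted p between 0.00187 and 0.0451, so the call was kept under each of those 9 settings. Among them, the other filters, separate channels and the trended and robust variance reuse the ratios reported, so only the adjusted p could change.

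The other H2-K1 probes gave smaller ratios that were not called. Probe A_52_P474242 had log2 levels of 14.72 and 14.82 in autoreactive cells, against 14.34 and 14.32 in non-autoreactive cells. The ratio reached 0.39 on array 1 and 0.50 on array 2 (mean 0.45 ± 0.12, limma adjusted p = 0.106). For probe A_51_P198434 the log2 levels were 17.26 and 17.26 in autoreactive cells, against 16.79 and 16.79 in non-autoreactive cells. Both probes were higher in autoreactive cells on each array, with no overlap between the groups. A_51_P198434 had a log2 ratio of 0.47 on array 1 and 0.47 on array 2 (mean 0.47 ± 0.12, limma adjusted p = 0.0896), and with the scanner program's deposited ratios it stood at -0.09, on the other side of 0. It was printed 10 times on each array, and 8 spots were kept on each. The ratios of these spots ran between 0.398 and 0.553 on array 1 (SD 0.053) and between 0.442 and 0.503 on array 2 (SD 0.024), all above 0. Spots share the array's 2 labelled samples, so their spread is that of printing and scanning.

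Under the loess normalization reported, probe A_52_P50496 stood apart from the other H2-K1 probes by more than the arrays differed. The log2 ratio of A_52_P50496 exceeded that of A_51_P198434 by 0.60 on array 1 and 0.53 on array 2, and that of A_52_P474242 by 0.68 and 0.49. The other 2 H2-K1 probes lay close together, with A_51_P198434 minus A_52_P474242 at 0.09 on array 1 and -0.04 on array 2. These gaps depended on how the dyes were scaled. Median centring put A_52_P50496 at 1.98, A_51_P198434 at 1.95 and A_52_P474242 at 1.53. With the deposited ratios A_52_P50496 stood at 1.09, A_51_P198434 at -0.09 and A_52_P474242 at 0.44. By the positions in the scanner files, given without a genome build, all 3 lie on the minus strand of chromosome 17. A_51_P198434 (32074445 to 32074504) is the one nearest the 3′ end, A_52_P50496 (32077678 to 32077737) starts 3233 bases upstream of it and A_52_P474242 (32077868 to 32078115) 3423 bases upstream. The called probe thus lies between the other probes, and the position along the gene did not order the ratios. Exon and intron limits on that build are not used here.

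H2-D1 encodes the D heavy chain, the other classical molecule of the b haplotype. Probe A_51_P496996 (chromosome 17, 33361850 to 33362082, plus strand) had log2 levels of 15.53 and 15.74 in autoreactive cells, against 15.86 and 16.07 in non-autoreactive cells. On each array the autoreactive level was the lower one, and the 2 groups did not overlap over the arrays. The log2 ratio was -0.33 on both arrays (mean -0.33 ± 0.12, 95% interval -0.63 to -0.03, limma adjusted p = 0.182) and was not called. It was called lower (adjusted p = 0.046) when loess was fitted on spots well above background alone, a setting chosen after seeing the data, stood at -0.72 without a call with the deposited ratios, and at 0.95 under median centring. Over the 9 alternatives other than median centring its adjusted p ran between 0.046 and 0.475, the latter with separate channels. Probe A_52_P246277 carries the name H2-D1 but its description is that of a thymus leukemia antigen, and it was not well above background in any channel. The H2-K1 ratios were above the H2-D1 ratio on both arrays. The difference in log2 ratio was 1.40 and 1.33 for A_52_P50496, 0.72 and 0.83 for A_52_P474242 and 0.80 and 0.80 for A_51_P198434. Over the main setting and 10 alternatives these differences lay between 1.03 and 1.81, between 0.58 and 1.16 and between 0.63 and 1.00, all with H2-K1 above H2-D1. Alternatives that changed only the filter or the variance, or separated the channels, could not move them. The alleles at both loci differ between the groups, so these differences are of probe signals.

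**Figure D2:**
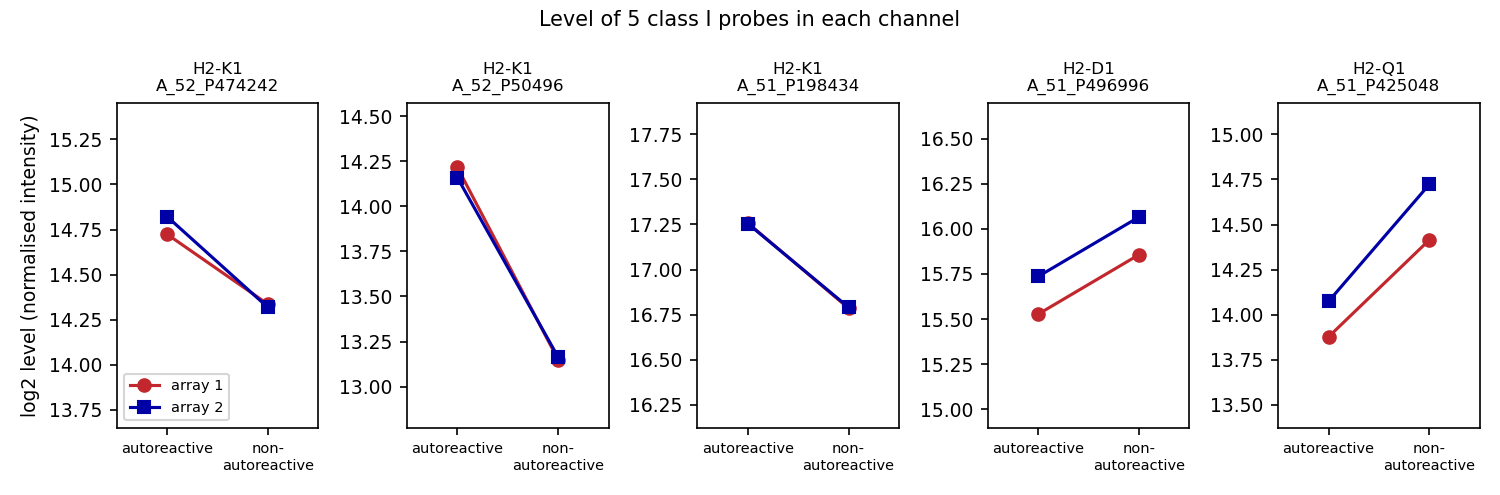
Log2 level of 5 class I probes (vertical axis, normalized intensity; each panel spans the same range of log2 units around its own mean) in autoreactive cells (left) and non-autoreactive cells (right), with a line joining the channels of array 1 (red circles) and of array 2 (blue squares). The lines of the 3 H2-K1 probes run downward to the right, most steeply for A_52_P50496, and those of H2-D1 and of the H2-Q1 probe run upward.

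The Q region encodes nonclassical molecules, among them Qa-2, the products of H2-Q7 and its close relatives. H2-Q1 had 3 probes. Probe A_51_P425048, whose listed transcripts belong to both H2-Q1 and H2-Q2, had log2 levels of 13.88 and 14.07 in autoreactive cells, against 14.42 and 14.72 in non-autoreactive cells. These levels were lower in autoreactive cells on both arrays and did not overlap. Log2 ratios of -0.54 and -0.65 (mean -0.59 ± 0.12, limma adjusted p = 0.0523) lay just outside the threshold, and 3.91% of all probes tested had a ratio this low. It passed as lower with the filter on both channels (adjusted p = 0.0482), with a trended and robust variance (adjusted p = 0.0393) and with loess on detected spots (adjusted p = 0.0265), while median centring put it at 0.45. Its adjusted p ran up to 0.237 among the 9 alternatives other than median centring. That value came from separate channels, a fit without the pairing by array. Among the class I probes A_51_P425048 had the lowest ratio.

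Probe A_52_P582814, also named H2-Q1, is described in the scanner files as Q region locus 4. Its log2 levels were 16.05 and 16.17 in autoreactive cells, against 15.51 and 15.88 in non-autoreactive cells. The levels were higher in autoreactive cells on both arrays and did not overlap. The arrays gave log2 ratios of 0.54 and 0.29 (mean 0.42 ± 0.13, limma adjusted p = 0.137). The ratio of this probe lay 1.08 above that of A_51_P425048 on array 1 and 0.94 above it on array 2. Under the loess normalization reported, the 2 probes named H2-Q1 thus pointed in opposite directions on both arrays. With the deposited ratios A_52_P582814 stood at 0.25 on array 1 and -0.03 on array 2. Median centring put A_52_P582814 at 1.72 and A_51_P425048 at 0.45, both above 0. The third H2-Q1 probe, A_52_P231729, was not well above background in either group. An alternative chosen after seeing the data left out the 2 probes whose description names another gene. Of these only A_52_P582814 had been tested. The median of the class I ratios was then -0.041, beside 0.027 with it. The counts of called probes stayed at 1 and 0, as they had to, since neither probe was called.

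H2-Q2, another gene of the Q region, had log2 levels of 16.28 and 16.29 in autoreactive cells, against 16.40 and 16.63 in non-autoreactive cells. The groups did not overlap, but the ratio of -0.13 on array 1 and -0.34 on array 2 was not called (mean -0.23 ± 0.13, limma adjusted p = 0.333). H2-Q7 encodes a Qa-2 heavy chain and had log2 levels of 15.61 and 15.89 in autoreactive cells, against 15.68 and 16.04 in non-autoreactive cells. The groups overlapped, and the ratios were -0.07 and -0.15 (mean -0.11 ± 0.12, limma adjusted p = 0.622). Its probe was printed 10 times, and the kept spots ran between -0.173 and -0.015 on array 1 (7 spots) and between -0.193 and -0.104 on array 2 (9 spots), all below 0. H2-Q8, another Qa-2 gene, had log2 levels of 12.06 and 12.45 in autoreactive cells, against 12.12 and 12.33 in non-autoreactive cells, and ratios of -0.06 and 0.12, a change of sign between the arrays. Its mean of 0.03 ± 0.13 (limma adjusted p = 0.918) had a 95% interval of -0.28 to 0.34.

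H2-T23 encodes the heavy chain of Qa-1, which presents leader peptides of other class I chains and is a ligand of the CD94/NKG2A receptor of natural killer cells. Its log2 levels were 16.01 and 16.10 in autoreactive cells, against 16.13 and 16.20 in non-autoreactive cells. The groups lay next to each other without overlap, the ratios of -0.12 and -0.10 differed little between the arrays, and the mean of -0.11 ± 0.12 was not called (limma adjusted p = 0.614). H2-T22 encodes a ligand of some gamma delta T cell receptors and had 2 probes. For A_51_P432544 the log2 levels were 13.51 and 13.12 in autoreactive cells, against 13.56 and 13.42 in non-autoreactive cells, and for A_52_P197826 they were 10.91 and 11.00 in autoreactive cells, against 11.11 and 11.31 in non-autoreactive cells. Both H2-T22 probes were lower in autoreactive cells on each array, but the levels of A_51_P432544 overlapped between the groups. Their mean ratios of -0.17 ± 0.13 and -0.26 ± 0.12 were not called (limma adjusted p = 0.468 and 0.27). The ratios of the 2 H2-T22 probes differed by 0.15 on array 1 and by 0.02 on array 2.

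H2-M3 presents peptides with a formylated end, such as those of bacteria and mitochondria, and had 2 probes. Probe A_51_P469968 had log2 levels of 13.66 and 13.73 in autoreactive cells, against 13.53 and 13.42 in non-autoreactive cells. The groups did not overlap, and the ratios were 0.14 and 0.32 (mean 0.23 ± 0.13, limma adjusted p = 0.332). Probe A_52_P490263 had 10.64 and 11.12 in autoreactive cells, against 10.87 and 10.56 in non-autoreactive cells, so that the groups overlapped. Its ratio was -0.23 on array 1 and 0.56 on array 2 (mean 0.17 ± 0.20, limma adjusted p = 0.653), the largest gap between arrays among the class I probes. The sign of this probe therefore depends on which array is read.

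Cd1d1 encodes a class I-like chain that presents lipids to natural killer T cells and, unlike the other members, lies outside the H-2 region, on chromosome 3. Its log2 levels were 13.84 and 14.32 in autoreactive cells, against 13.80 and 14.05 in non-autoreactive cells. The groups overlapped. The ratios were 0.04 and 0.27, with a mean of 0.15 ± 0.13 (95% interval -0.16 to 0.47, limma adjusted p = 0.509). Across the family the levels of the groups did not overlap for 10 of the 15 probes tested, beside 45.6% of all probes tested, and 1 of these 10 was called.

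**Figure D3:**
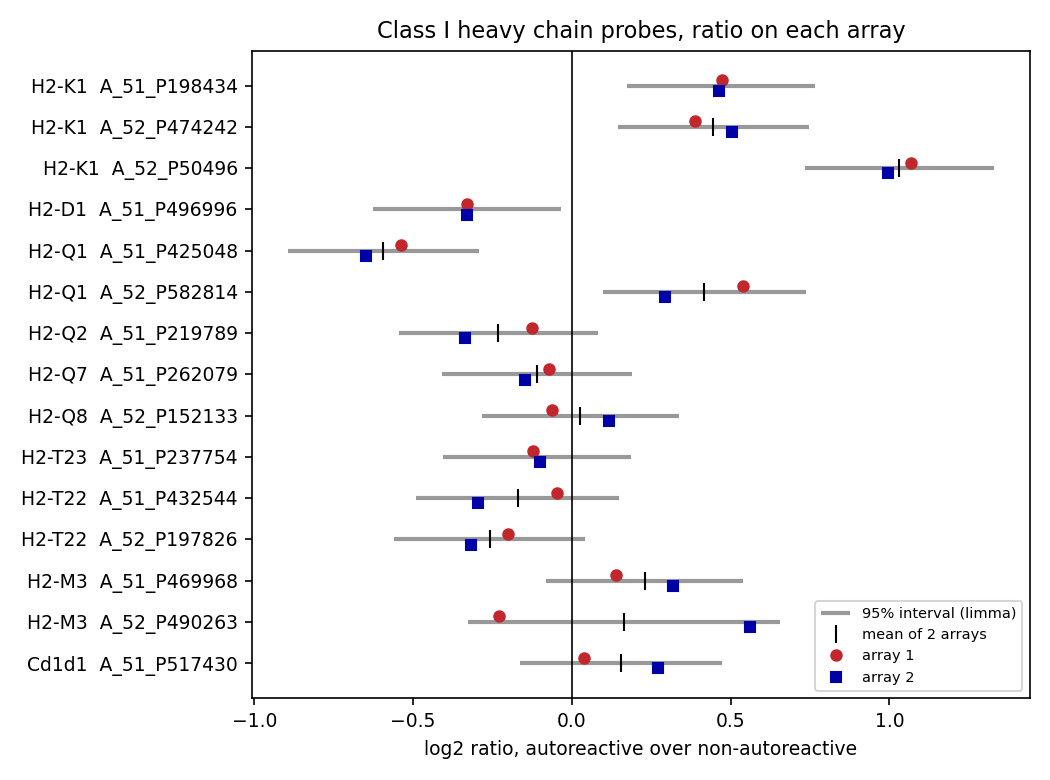
Log2 ratio, autoreactive over non-autoreactive (horizontal axis), of the 15 class I probes tested (rows), on array 1 (red circles) and array 2 (blue squares), with the mean of the 2 arrays (black tick) and its 95% interval from limma (grey line), which is not adjusted for the number of probes. The 3 H2-K1 probes lie right of 0 on both arrays, the 2 H2-Q1 probes lie on opposite sides, and the H2-Q8 and A_52_P490263 (H2-M3) probes change sign between the arrays.

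The signs of some class I ratios depended on how the dyes were scaled. Of the 15 probes, 1 changed sign with the deposited ratios and 7 under median centring. With the deposited ratios, normalized by the scanner program, some probes moved down, to -0.09 for H2-K1 A_51_P198434, -0.72 for H2-D1, -0.67 for H2-Q2, -0.41 for H2-Q7, -0.46 for H2-T23 and 0.11 for H2-Q1 A_52_P582814. These were the brightest of the class I probes, with mean log2 levels of 15.63 or above in each group. The other probes had mean levels of 14.77 or below and moved by less. Among them were H2-K1 A_52_P474242 at 0.44 and H2-K1 A_52_P50496, which stayed called at 1.09 (adjusted p = 0.0241). Why the shift went with spot intensity was not tested. Median centring without loess put the median of all probes tested at 0.535 and called 14276 of them higher, with all 15 class I probes among those. Relative to that median, 13 class I probes were above it, led by H2-K1 A_52_P50496 (1.44) and A_51_P198434 (1.42), and H2-Q1 A_51_P425048 (-0.09) and H2-T22 A_52_P197826 (-0.15) were below it. H2-K1 A_52_P50496 was the class I probe called higher under every setting that gave a test.

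**Figure D4:**
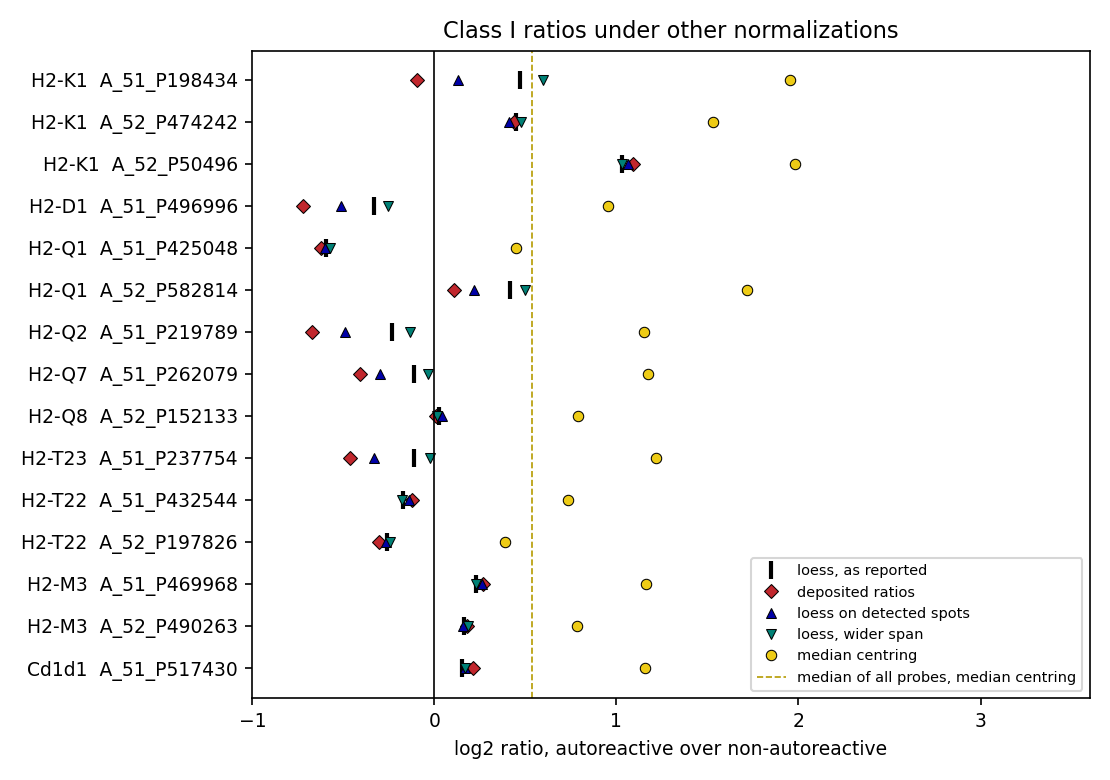
Log2 ratio, autoreactive over non-autoreactive (horizontal axis), of the 15 class I probes tested (rows) under the loess normalization reported (black bars), the deposited ratios (red diamonds), loess on detected spots (blue triangles), loess with a wider span (green triangles) and median centring (yellow circles). The dashed line is the median of all probes tested under median centring, 0.535, and the H2-K1 probe A_52_P50496 and the H2-D1 probe keep their order under each.

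The partners that load class I molecules were read from a list of 13 measured genes with 21 probes, all tested. By limma 2 probes were higher and 3 lower, beside 3.15% and 2.17% of all probes tested, and the median was -0.26, beside 0.006. The higher ones were a probe of B2m, the light chain that pairs with class I heavy chains (0.66 ± 0.12, limma adjusted p = 0.0366), and Tap2, a subunit of the peptide transporter (0.80 ± 0.13, limma adjusted p = 0.0248). The B2m probe, A_51_P129012, had log2 levels of 16.33 and 16.22 in autoreactive cells, against 15.66 and 15.58 in non-autoreactive cells, with no overlap. Other B2m probes stood at 0.24 and -0.15, neither called, and with the deposited ratios the called one stood at 0.35 and was not called. The lower ones were both probes of Calr, the chaperone calreticulin (-0.98 ± 0.14 and -0.71 ± 0.13, limma adjusted p = 0.0168 and 0.0382), and Pdia3, the oxidoreductase of the loading complex (-1.06 ± 0.19, limma adjusted p = 0.0343). Pdia3 differed between the arrays, at -0.70 on array 1 and -1.43 on array 2. With the deposited ratios 1 probe of this list was called, with separate channels none, and Psme2 and Nlrc5 had no probe under these names.

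Other class I-like genes gave 16 tested probes of 29, with a median ratio of 0.005. By limma 1 was higher and 1 lower, beside the same 3.15% and 2.17% of all probes, and both were of H2-Q10, which encodes a class I chain known from liver and serum. Probe A_51_P230267 stood at 0.84 ± 0.14 (limma adjusted p = 0.0301) and A_52_P428354 at -0.98 ± 0.13 (limma adjusted p = 0.013), with 0.20 and 0.08 on its other probes. A_51_P230267 was a dim probe, with log2 levels of 7.69 and 8.10 in autoreactive cells, against 7.05 and 7.08 in non-autoreactive cells. With the deposited ratios A_51_P230267 stood at 1.63, and under median centring A_52_P428354 stood at -0.028 and was not called. As with H2-Q1, where 1 probe is described as another gene, probes under the same class I name lay on both sides of 0.

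Markers of B cells were measured in both groups, and all 11 probes of 8 B lineage genes passed the filter on dim probes. Of these 1 was higher (Blnk) and 4 were lower (Vpreb1, Pax5 by 1 of its probes, and Igll1 by 2 probes) by limma, beside 3.15% and 2.17% of all probes tested. Of 40 probes of 26 genes that mark T, natural killer, myeloid, erythroid or plasmacytoid dendritic cells, 35 were tested and none was called by limma, with 17 lower and 0 higher at an unadjusted p under 0.05, beside 11.3% lower and 11.8% higher of all probes tested. Of the 35, 3 (Cd3g and 2 Cd8a probes) were well above background in non-autoreactive cells alone and passed the filter through that channel, so a lower ratio was built into their selection. The median ratio of the 35 probes stood at -0.20 on array 1 and at -0.63 on array 2, and 1 probe each of Cd3e, Cd4, Cd8a, Csf1r and Klrb1c was not well above background. Many of these cells express class I genes too. Their part in the class I ratios was not tested, and in bulk samples a different number of such cells and a different amount of RNA per cell cannot be told apart.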

How the data were processed

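Gene expression was measured in pooled, sorted immature B cells on 2 two-colour arrays, with autoreactive RNA in Cy5 and non-autoreactive RNA in Cy3. Per the labels, RNA was linearly amplified before labelling, which can change the proportions of transcripts. Per the file headers, Agilent Feature Extraction 9.5.1.1 gave each spot a mean intensity and a local background intensity in both channels, and these stand in the deposited scanner files. The same program derived the deposited log10 ratio (Cy5 over Cy3) after subtracting background and normalizing the dyes, per the file headers. The deposited series table holds the same log10 ratios (largest difference 5e-10, median 0 on each array), which settles its scale and direction.

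The mean intensities underwent normexp correction (offset 50) and loess normalization within arrays in limma 3.58.1 (R 4.3.3). Control and outlier spots had no weight and were then left out, and spots of a probe were averaged. A probe was tested where at least 1 channel was well above background on each array, and log2 ratios were tested against 0 with lmFit and eBayes, two-sided, Benjamini-Hochberg adjusted over the 22623 probes tested, at 0.05. Levels per channel follow Aquantile scaling of the arrays. The arrays shared 1 slide and 1 scan, so neither could serve as a block. The fit was also run on simulated ratios with independent arrays and no dye effect, which cannot test for a dye effect or for shared samples.

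Probe names were updated through a RefSeq table of GRCm38.p6, which also assigned the transcripts listed for a probe to genes. The text names every class I heavy chain probe, H2-Ea, B2m, genes with a called probe in the 2 related lists, and counts over marker lists. Called marker genes were named after their values were seen. No genes of like pattern were sought, since 2 arrays give no measure of likeness. The members and lists were chosen with earlier results of these data known. Alternatives were other background corrections, the deposited ratios, median centring, other filters, separate channels, each array alone and a variance that was trended and robust. Added later were 2 other loess fits and the list without 2 probes described as another gene. The fit with separate channels took the channel levels without their pairing by array. Promoters were aligned with Biopython 1.88, and figures drawn with matplotlib 3.10.9.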

Additional observations from a re-analysis of the deposited data

How the results depend on the processing

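Across the 15 class I probes, directions and calls were the same without background correction and with normexp offset 16. Calls were also the same without the filter and with separate channels. Both of these reuse the ratios of the main fit, so the directions could not differ. The adjusted p of the called H2-K1 probe was highest, 0.0451, with separate channels, which leave out the pairing by array. With median centring the median class I ratio was 1.16, and 15 class I probes, 15 of the assembly list and 9 of the other class I-like list were called, against a shift of all probes of 0.53 on array 1 and 0.54 on array 2. It put H2-D1 at 0.95, H2-Q1 A_51_P425048 at 0.45, H2-Q2 at 1.15, H2-Q7 at 1.18, H2-T23 at 1.22, and the H2-T22 probes A_51_P432544 at 0.73 and A_52_P197826 at 0.39. It also put Tap1 at 0.43, the Psmb8 probes at 0.88 and 0.64, Psmb9 at 0.76, Calr A_51_P416419 at 0.076 and B2m A_52_P105594 at 0.58, on the other side of 0. The deposited ratios put H2-K1 A_51_P198434 at -0.093 and H2-Q10 A_51_P496997 at -0.26, and 1 assembly probe was called. Probes called lower numbered 1 with the filter on both channels, 1 with a trended and robust variance and 2 with loess on detected spots, which put H2-Q10 A_51_P496997 at -0.13. The last was chosen after seeing the data, as were the wider loess span, which changed no class I call or sign, and the list without 2 probes. Without the filter 3 assembly probes and 1 other class I-like probe were called, and with separate channels 0 and 0. The cause of these changes was not tested.

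Single arrays gave median class I ratios of -0.063 (array 1) and 0.117 (array 2), and no counts, since 1 array leaves no test. The lowest and highest single-array values were -0.06 and 0.12 for H2-Q8, -0.23 and 0.56 for H2-M3 A_52_P490263, -0.005 and 0.16 for H2-Q10 A_51_P496997, and -0.39 and 0.10 for B2m A_52_P105594. The main fit is paired by array, because each ratio sets the groups against each other within an array.

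With 2 arrays, 1 slide and no dye swap, a dye effect cannot be told apart from the groups. Probe sequences and alleles were not analysed here, so unequal binding was not tested. Ratios that missed the threshold do not show that levels were alike.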
